A study of Mus musculus with 6 samples.

Results

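The 7 genes described here are markers of the granule cells of the dentate gyrus (Dsp, Lct, Prox1, C1ql2, C1ql3, Tdo2 and Trpc6), measured by RNA sequencing in cortical tissue of young and aged mice. They are 7 of the 38355 genes listed in the count files, and all 7 were among the 17120 genes that passed the filter on low counts. Dsp and Lct entered the set because they were selected on their fold change between the ages, which was among the largest in these same samples, and the other 5 are known dentate gyrus markers set beside them with that result in view. The difference between the ages was therefore part of the choice, and for these 7 genes it is given as a description that supports nothing further. The question was whether the 7 differ between the ages in proportion, as they would if a small piece of dentate gyrus had been dissected along with the cortex.

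The samples were cortical hemispheres of C57BL/6 mice, for which the labels name no other genotype and no treatment, 3 samples at 6 months and 3 at 16 months, and all mice were anesthetized with chloral hydrate before dissection. One housing note in the labels gives the younger age as 3 months, but the labels of each sample give 6 months. Between 29797253 and 46519280 reads per sample were counted on genes, so that a level of 3 counts, used as the floor, corresponds to at most 0.101 counts per 1000000 (CPM). Markers of cortical excitatory neurons were abundant in every sample, with the vesicular glutamate transporter Slc17a7 between 941 and 1247 CPM. In bulk tissue, more cells of a type and more RNA per cell cannot be told apart.

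The dentate gyrus is the part of the hippocampus that receives input from the entorhinal cortex. Its granule cells send mossy fibers to the CA3 pyramidal cells and are among the few neurons still born in the adult rodent. The hippocampus lies directly beneath the cortex, so a dissected cortical hemisphere may carry some of it. Tissue carried along adds each of its transcripts in a fixed ratio on top of what the cortex itself contains. A gene nearly silent in cortex then shows a large fold difference and a gene that cortex expresses a small one, whereas the amounts added to different samples keep the same relation for every gene.

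Where these genes start is shown for Dsp, Lct and C1ql2, which had the largest fold changes of the 7. The sequences are the 250 bases before the RefSeq start site in GRCm38.p6, on the strand of the gene. They lie at chr13:38151044-38151293 (plus strand) for Dsp, at chr1:128328319-128328568 (minus strand) for Lct and at chr1:120340332-120340581 (plus strand) for C1ql2. Capitals mark an E-box (CANNTG, the motif of basic helix-loop-helix factors) or a GC box (GGGCGG), each on either strand.
Dsp: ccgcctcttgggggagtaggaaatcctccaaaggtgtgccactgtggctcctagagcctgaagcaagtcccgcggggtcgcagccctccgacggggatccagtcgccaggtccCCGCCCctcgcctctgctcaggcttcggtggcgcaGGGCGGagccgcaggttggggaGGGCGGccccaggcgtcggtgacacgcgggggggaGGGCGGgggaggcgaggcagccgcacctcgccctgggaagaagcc
Lct: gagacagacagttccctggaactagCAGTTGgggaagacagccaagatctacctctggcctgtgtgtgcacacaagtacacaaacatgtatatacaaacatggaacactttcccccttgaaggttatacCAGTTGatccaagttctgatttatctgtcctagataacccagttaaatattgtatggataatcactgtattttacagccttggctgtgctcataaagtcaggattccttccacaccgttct
C1ql2: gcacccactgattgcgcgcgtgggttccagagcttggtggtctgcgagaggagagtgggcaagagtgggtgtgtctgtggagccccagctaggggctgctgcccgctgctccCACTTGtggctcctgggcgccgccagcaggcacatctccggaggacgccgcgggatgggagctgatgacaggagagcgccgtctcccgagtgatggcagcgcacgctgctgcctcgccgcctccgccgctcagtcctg

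The 3 windows had little in common. G and C made up 72.4% of the Dsp window and 68.8% of the C1ql2 window, but 42.8% of the Lct window. The Dsp window held 4 GC boxes and no E-box, the Lct window 2 E-boxes and no GC box, and the C1ql2 window 1 E-box and no GC box. An E-box occurred in 66.2% and a GC box in 32.7% of all 32851 RefSeq windows of this length. Neither TATAAA (12.4% of all windows) nor the cyclic AMP element TGACGTCA (1.5%) was present in these 3 windows.

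Dsp encodes desmoplakin, which ties intermediate filaments to desmosomes, and in the forebrain its transcript marks granule cells. The gene lies on chromosome 13 of GRCm38 from 38151294 to 38198577. Its counts were 173, 103 and 144 at 6 months and 308, 227 and 299 at 16 months (replicates 1, 2 and 3). Scaled to library size, the levels were 3.69, 3.43 and 3.43 CPM at 6 months against 9.29, 7.24 and 8.75 CPM at 16 months. Every sample of 16 months lay above every sample of 6 months, and the lowest aged sample was still far above the highest young one. The mean was 3.52 ± 0.149 CPM at 6 months and 8.42 ± 1.06 CPM at 16 months (SD, n = 3 each), 2.40 times the younger level. The log2 fold change was 1.26 ± 0.11 (SE). Of all 17120 tested genes, 20 had a larger log2 fold change.

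Lct encodes lactase, the enzyme that splits milk sugar in the gut, and its transcript is also a marker of granule cells. It lies on the minus strand of chromosome 1 from 128284756 to 128328318. The levels were 3.26, 2.86 and 2.95 CPM at 6 months and 7.05, 6.22 and 6.53 CPM at 16 months. The ages lay apart here as well, with less spread in the aged samples than for Dsp. The log2 fold change was 1.12 ± 0.097 (SE), and 29 tested genes had a larger one.

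C1ql2 and C1ql3 encode secreted C1q-like proteins that granule cells release at mossy fiber synapses, where they organize kainate receptors. C1ql2 (chromosome 1, 120340582 to 120343174) stood at 7.82, 7.0 and 7.43 CPM at 6 months and at 16.6, 11.3 and 12.7 CPM at 16 months. The aged samples were all above the young ones, and replicate 1 was highest. On the log2 scale the aged samples spanned 0.55, more than for any other of the 7 genes. The log2 fold change was 0.86 ± 0.13 (SE). C1ql3 (chromosome 2, 13003457 to 13011806), which cortical neurons express too, stood at 77.3, 80.8 and 81.6 CPM at 6 months and at 93.6, 97.3 and 91.0 CPM at 16 months. Its groups did not overlap, but the log2 fold change was only 0.23 ± 0.052 (SE). The annotation places an antisense gene, Gm37811, over much of C1ql3, so that 64.2% of its exon bases are shared with other genes. Gm37811 was not among the genes of the count files, and without strand in the counting its reads could not be told apart from those of C1ql3.

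Prox1 encodes the homeobox factor that granule cells need to keep their identity. Interneurons born in the caudal ganglionic eminence carry it throughout the cortex. The gene lies on chromosome 1 from 190118035 to 190170714. The levels were 35.6, 37.0 and 33.9 CPM at 6 months and 39.0, 43.6 and 40.2 CPM at 16 months. The ages did not overlap, although the lowest aged sample was close to the highest young one. The log2 fold change was 0.21 ± 0.063 (SE).

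The other two genes overlapped between the ages. Tdo2, which encodes the first enzyme of tryptophan breakdown along the kynurenine pathway, lies on chromosome 3 from 81957090 to 81976202. It had few reads, between 63 and 84 per sample, with levels of 1.71, 2.17 and 1.88 CPM at 6 months and 2.53, 2.01 and 2.22 CPM at 16 months. Its log2 fold change was 0.25 ± 0.14 (SE). Trpc6, a cation channel opened by diacylglycerol, lies on chromosome 9 from 8544142 to 8680741 and stood at 18.1, 18.3 and 17.9 CPM at 6 months and at 17.8, 18.6 and 18.6 CPM at 16 months. All 6 values lay within a narrow range, and the log2 fold change was 0.020 ± 0.0585 (SE).

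**Figure D1:**
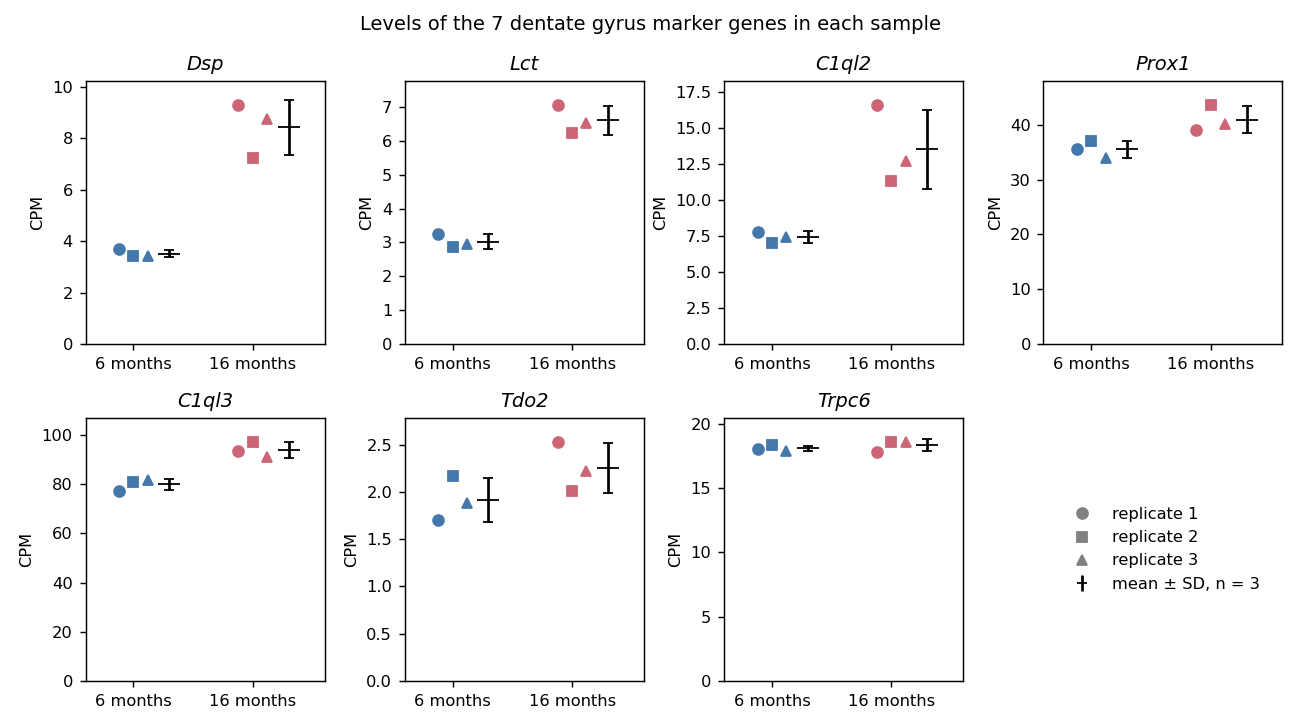
Level of each of the 7 genes in CPM (vertical axis, starting at 0) at 6 and 16 months. Symbols are the 3 replicates of each age and the bar gives the mean ± SD (n = 3). Dsp, Lct and C1ql2 stood well above the young samples at 16 months, Prox1 and C1ql3 slightly, and Tdo2 and Trpc6 overlapped.

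Counted over the 7 genes, 3 (Dsp, Lct and C1ql2) were higher at 16 months at a Benjamini-Hochberg adjusted p under 0.05 in edgeR's quasi-likelihood test. Over all tested genes, 0.783% were called higher and 0.888% lower at 16 months, 1.67% together. In 5 of the 7 all aged samples were above all young samples, as in 12.2% of all tested genes. Nothing is read from these counts, because the age difference helped to choose the genes. These counts also depended on which samples were fitted. The call of C1ql2 was lost without any 1 of the 6-month replicates or without replicate 3 of 16 months. In these fits only 0.277% to 0.335% of all tested genes were called, and the log2 fold change of C1ql2 stayed between 0.83 and 0.91. Without replicate 1 of 16 months 5 of the 7 were called, with Prox1 and C1ql3 added, where 5.73% of all tested genes were called.

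Per kilobase of exon, the order of the levels changed between the ages. At 6 months C1ql3 was highest, at 31.5 ± 0.884 CPM per kilobase (SD, n = 3), followed by Prox1 at 4.23 ± 0.184, C1ql2 at 3.71 ± 0.207 and Trpc6 at 3.57 ± 0.0427. Tdo2 (0.494 ± 0.0598), Lct (0.473 ± 0.0325) and Dsp (0.364 ± 0.0154) came last. C1ql2 and Trpc6 overlapped in their samples, as did Tdo2 and Lct, and the other neighbours lay apart. At 16 months C1ql2 (6.77 ± 1.37 CPM per kilobase) had moved above Prox1 (4.88 ± 0.283), and Lct (1.03 ± 0.0662) and Dsp (0.872 ± 0.110) above Tdo2 (0.581 ± 0.0679), with no overlap between neighbours in that order.

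The level at 16 months was 2.40 times that at 6 months for Dsp, 2.18 times for Lct and 1.83 times for C1ql2, against 1.18 times for C1ql3 and for Tdo2, 1.15 times for Prox1 and 1.01 times for Trpc6. Taken in pairs, the log2 ratio of 2 genes lay apart between the ages in 16 of the 21 pairs. Pairs with Dsp or Lct in part restate how these genes were selected, and among the 10 pairs without them the ratio lay apart in 6. These 6 were every such pair with C1ql2, and Trpc6 with Prox1 and with C1ql3. The share over pairs of all tested genes was not computed, so nothing is read from these counts. Added tissue would also change the ratio of genes with unlike levels in cortex. The ratio of Dsp to Lct was one of the 5 that overlapped. Their log2 fold changes differed by 0.14 ± 0.15 (SE of the difference). In this paragraph that error combines those of the 2 genes as if independent, although both were measured in the same samples. Prox1 and C1ql3 differed by −0.029 ± 0.082 (SE), and their ratio overlapped as well. The log2 fold changes of C1ql2 and C1ql3 differed by 0.63 ± 0.14 (SE). Per sample, their log2 ratio was −3.31, −3.53 and −3.46 at 6 months and −2.49, −3.10 and −2.84 at 16 months.

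On the scale of CPM, which is the one on which added tissue would add up, the difference between the means of the ages was 4.91 for Dsp, 3.57 for Lct, 6.13 for C1ql2, 5.41 for Prox1, 14.1 for C1ql3, 0.337 for Tdo2 and 0.242 for Trpc6. The difference of Prox1 (standard error 1.63) was thus within its error of that of Dsp (standard error 0.619), on a level at 6 months that was many times higher. Per kilobase of exon the difference was 0.508 for Dsp, 0.558 for Lct and 0.644 for Prox1, which are of similar size, 3.06 for C1ql2 and 5.55 for C1ql3, but only 0.0869 for Tdo2 and 0.0477 for Trpc6. The standard error of the difference in CPM was 0.289 for Trpc6 and 0.203 for Tdo2. The levels of the 7 genes in pure dentate gyrus were not analysed here, and without them no share of dentate tissue was computed.

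If added tissue were all that differed between the aged samples, they would come in the same order for every gene. Expressed as a percentage of the mean difference from the 6-month level, replicates 1, 2 and 3 of 16 months stood at 118, 75.8 and 107 for Dsp. The same percentages were 113, 89.3 and 97.9 for Lct and 150, 63.7 and 86.2 for C1ql2. The values of these 3 genes came in the same order, with replicate 1 highest and replicate 2 lowest. That order was not resolved for Lct, nor was replicate 1 against replicate 3 for Dsp. Prox1 showed another order, with 64.5, 149 and 86.5, and so did C1ql3, with 97.7, 123 and 78.9, replicate 2 being highest in both. Replicates 1, 2 and 3 of 6 months stood at 2.19, 27.5 and −29.7 for Prox1 and at −18.1, 6.13 and 11.9 for C1ql3. On this scale samples of 1 age thus varied widely in these 2 genes, and the cause of their order was not tested. In the aged samples the counting error of such a percentage was 9.79 to 12.9 for Dsp, Lct, C1ql2 and C1ql3 and 20.1 to 21.8 for Prox1. Neighbouring values of Lct, and replicates 1 and 3 of Dsp and of Prox1, lay closer together than the counting error of their difference. Tdo2 came in the order of Dsp, at 182, 27.0 and 90.8. Its counting error was 75.0 to 81.9, too large to read an order.

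Across tested genes of known GC content, the GC content of the transcript correlated with how far replicates 1 and 2 of 16 months deviated from the mean of their age, with r = 0.588 and r = −0.582. The corresponding r was between −0.130 and 0.160 in the other 4 samples. Genes are not independent replicates, and the points share libraries and normalization. The transcript of C1ql2 has 63.3% GC, that of C1ql3 53.1%, that of Lct 52.9%, that of Dsp 51.8%, that of Trpc6 46.2%, that of Prox1 45.3% and that of Tdo2 39.6%. Among the aged samples, replicate 1 was highest for C1ql2, Lct and Dsp and lowest for Trpc6 and Prox1, which have less GC. It was highest for Tdo2 too, which has the least GC. Replicate 2 was highest for C1ql3, whose samples spanned only 0.096 on the log2 scale. Whether GC content set these orders was not tested. With offsets for GC content in each sample, C1ql2 stood at 14.2, 12.8 and 12.6 CPM in the 3 aged samples, and their range on the log2 scale was 0.17 in place of 0.55. For Lct the range was 0.058 in place of 0.18, and for Prox1 0.046 in place of 0.16, with 40.9, 41.6 and 40.3 CPM. It was 0.26 in place of 0.36 for Dsp, with 8.93, 7.44 and 8.66 CPM. Lct then stood at 6.69, 6.42 and 6.46 CPM. With a counting error of 0.094 to 0.103 log2 units per aged sample, the order of Lct was not resolved. For C1ql2 replicate 3 was then lowest in place of replicate 2. By contrast, the range widened for C1ql3, to 0.18 from 0.096, and for Tdo2, to 0.66 from 0.33. The differences between the ages stayed, with log2 fold changes of 1.24 for Dsp, 1.08 for Lct, 0.81 for C1ql2, 0.21 for Prox1 and 0.21 for C1ql3.

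**Figure D2:**
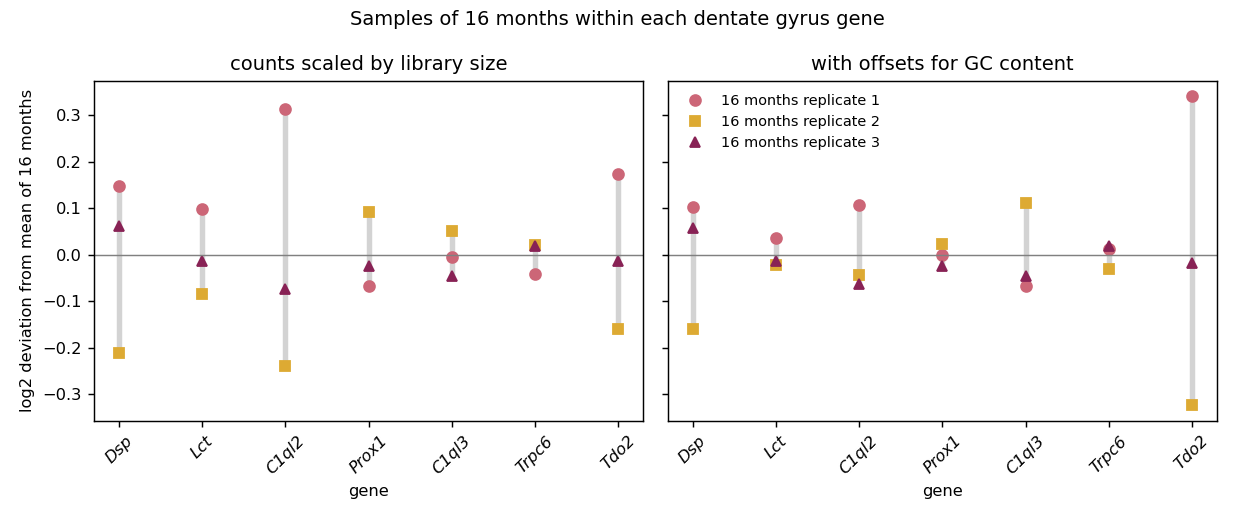
Deviation of each 16-month sample from the mean of its age, in log2 units (vertical axis), for the 7 genes, with library size scaling alone (left) and with offsets for GC content (right). Grey bars span the 3 replicates. Replicate 1 was highest and replicate 2 lowest for Dsp, Lct, C1ql2 and Tdo2 on the left. Counting error leaves this order unresolved for Lct and Tdo2, and replicate 1 against replicate 3 for Dsp. The span of C1ql2 shrank from 0.55 to 0.17 on the right.

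Genes enriched in the dentate gyrus that were no part of the set were taken from a list of 14, all of which were tested. In edgeR's test 1 of the 14 was called higher at 16 months and 0 lower, and 5 were higher at an unadjusted p under 0.05. The background for such unadjusted counts, here and below, was 1467 higher and 1520 lower of all 17120 tested genes. The remaining 13 genes of that list were not called. Npnt, an integrin ligand of the matrix, came nearest, with 26.1 ± 0.837 and 31.2 ± 0.969 CPM (SD, n = 3 each) and an adjusted p = 0.0589 in edgeR (Benjamini-Hochberg method). Maml2, a Notch coactivator, had a log2 fold change of 0.19, Dock10 and Rfx3, a guanine nucleotide exchange factor and a transcription factor, of 0.18 each, and Glis3, a zinc finger factor, of 0.17. Sipa1l2 stood at 0.17, the cadherin Cdh9 at 0.15, Ablim3 at 0.11, the proneural factor Neurod1 at 0.083 and Ahcyl2 at 0.042. The polo-like kinase Plk5 (−0.0025), Stxbp6 (−0.013) and Pdia5 (−0.035) lay near 0. In all, 11 of the 14 values were positive, with a median of 0.16, where the median of all tested genes was 0.0014. In 6 of the 14, all aged samples were above all young ones, against 12.2% of all tested genes. The count called depended on the setting, being 6 of 14 with offsets for GC content, with which 1386 of all genes were called higher.

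**Figure D3:**
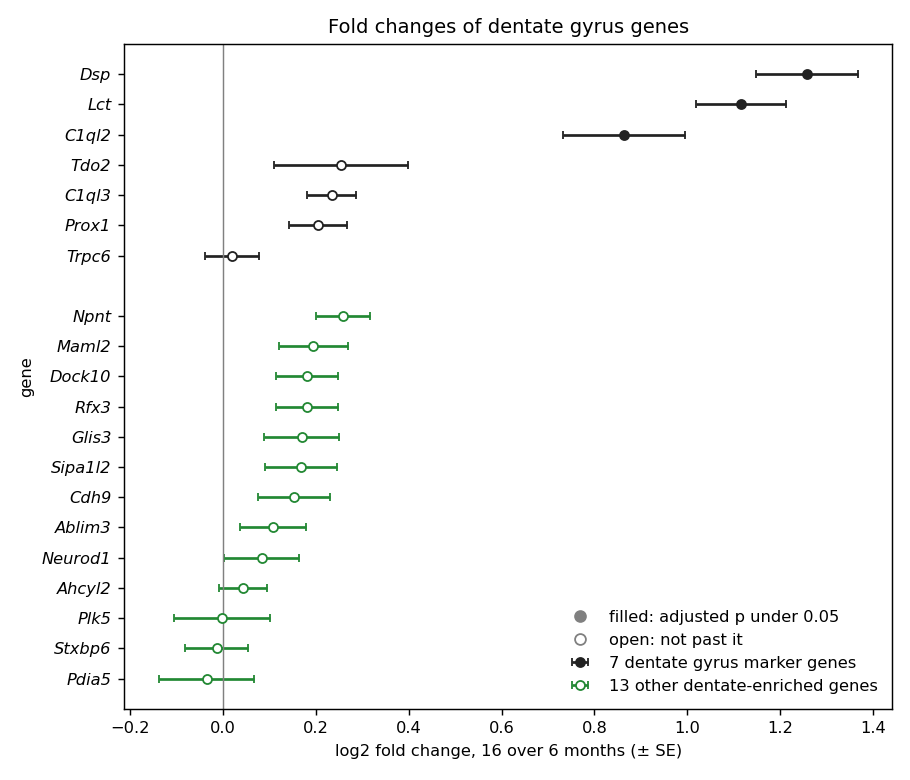
Log2 fold change of 16 over 6 months (horizontal axis) with its standard error for the 7 genes (black) and the 13 other dentate-enriched genes that were not called (green). Filled points passed an adjusted p of 0.05 in edgeR's quasi-likelihood test. Dsp, Lct and C1ql2 stand between 0.86 and 1.26, and the others shown at 0.26 or below.

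Genes that work with the 7 proteins were not called in the same test, but some were with offsets for GC content, with which 1386 of all genes were called higher and 1209 lower. Of 6 desmosome genes, 0 passed (1 higher and 1 lower at an unadjusted p under 0.05, 1 called higher by DESeq2, and 1 higher and 1 lower with GC offsets), with a median log2 fold change of −0.069. The most abundant were Pkp4 (−0.11), the plakoglobin gene Jup (0.096) and Pkp2 (0.32). Of 7 tested genes of the kynurenine pathway, 0 passed (0 at an unadjusted p under 0.05, 0 by DESeq2 and 0 with GC offsets), with a median of 0.026. Ido1, which catalyzes the same step as Tdo2, had a log2 fold change of −0.31, and the aminotransferase genes Kyat1 and Kyat3 of 0.12 and 0.098. Kynu and Haao were too low to be tested. Of 5 tested genes related to C1q-like signaling, 0 passed (1 higher at an unadjusted p under 0.05, 0 by DESeq2 and, with GC offsets, 3 higher), with a median of 0.11. Its members were the paralog C1ql1 (0.36), the presynaptic Nrxn3 (0.11), the C1q-like receptor gene Adgrb3 (0.058) and the kainate receptor genes Grik2 (−0.12) and Grik4 (0.12). C1ql4 had 0 counts in every sample, which allows a level of up to 0.0645 to 0.101 CPM. Of 5 tested TRPC channel genes, 0 passed (1 higher at an unadjusted p under 0.05, 0 by DESeq2 and, with GC offsets, 1 higher), with a median of 0.12. Trpc1 and Trpc4, the most abundant, had values of −0.012 and 0.12.

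Other cells of the hippocampus were read from lists of their own. Of 16 markers of CA pyramidal cells, 0 passed edgeR's test (5 higher and 0 lower at an unadjusted p under 0.05, and 1 called higher by DESeq2). The median log2 fold change was 0.12, with 13 positive values, and the summed level was 742 to 754 CPM at 6 months and 755 to 817 CPM at 16 months. The most abundant were Mpped1 (0.025), Pcp4 (−0.14) and Wfs1 (0.32). In 5 of the 16 all aged samples were above all young ones and in 0 below. Over all 17120 tested genes, 2086 lay above in this way and 1973 below. At an unadjusted p under 0.05 in edgeR's test, 1467 of all genes were higher and 1520 lower. With offsets for GC content 3 of the 16 were called higher and 1 lower. Among genes of dentate mossy cells Calb2 rose, with a log2 fold change of 0.37 and a standard error of 0.072 (adjusted p = 0.0348 in edgeR, Benjamini-Hochberg method). Calb2 is also made by cortical interneurons and in the thalamus. Drd2 (0.16) and Csf2rb2 (−0.071) were not called, and Glp1r was too low to be tested. Of 4 tested genes of newborn granule cells, 0 passed (3 higher and 1 lower at an unadjusted p under 0.05, 0 by DESeq2 and 1 higher with GC offsets). Dcx (−0.17), Sox11 (0.44), Draxin (0.55) and Igfbpl1 (1.23 ± 0.49 (SE)) did not move one way, and Eomes was too low to be tested.

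Some markers of tissue outside the hippocampus also differed between the ages. Over all tested genes, 0.783% were called higher and 0.888% lower. Of 12 thalamic genes, 7 were called higher and 0 lower (11 higher at an unadjusted p under 0.05, 7 by DESeq2 and 9 with GC offsets). All 12 genes had positive values, with a median of 0.42. Their summed level was 160 to 163 CPM at 6 months and 204 to 211 CPM at 16 months, and none was at 0 in any sample. The called genes were Shox2 (4.06), Prkcd (0.91), Synpo2 (0.67), Tnnt1 (0.61), Ramp3 (0.48), Tcf7l2 (0.44) and Amotl1 (0.40). Shox2 had only 4 counts in each sample of 6 months, next to the floor of 3, and 48, 59 and 65 at 16 months. The size of its fold change is therefore uncertain. Of 9 tested choroid plexus genes 1 was called, the transthyretin gene Ttr (1.00) (3 higher at an unadjusted p under 0.05, 1 by DESeq2 and 1 with GC offsets). The summed level was 21.3 to 22.5 CPM at 6 months and 29.9 to 34.3 CPM at 16 months. Most of that rise was Ttr itself, with a mean of 8.95 CPM at 6 months and 17.8 CPM at 16 months. Of 13 genes of striatal projection neurons, 2 were called higher, Pde10a (0.31) and Penk (0.25), and 0 lower (3 higher and 1 lower at an unadjusted p under 0.05, 2 higher by DESeq2 and, with GC offsets, 3 higher and 1 lower). The median of this list was 0.089, with 10 positive values and 3 negative ones, Ido1 (−0.31), Tac1 (−0.23) and Rgs9 (−0.015). The summed level was 862 to 882 CPM at 6 months and 968 to 978 CPM at 16 months. Much of that rise was Pde10a, with means of 226 and 281 CPM, and Penk, with 119 and 141 CPM. Of 8 genes of cortical excitatory neurons, 0 were called (1 higher at an unadjusted p under 0.05, 0 by DESeq2 and, with GC offsets, 2 higher and 1 lower), with a median of 0.042. The part of these tissues in the differences of Dsp, Lct and C1ql2 was not tested.

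**Figure D4:**
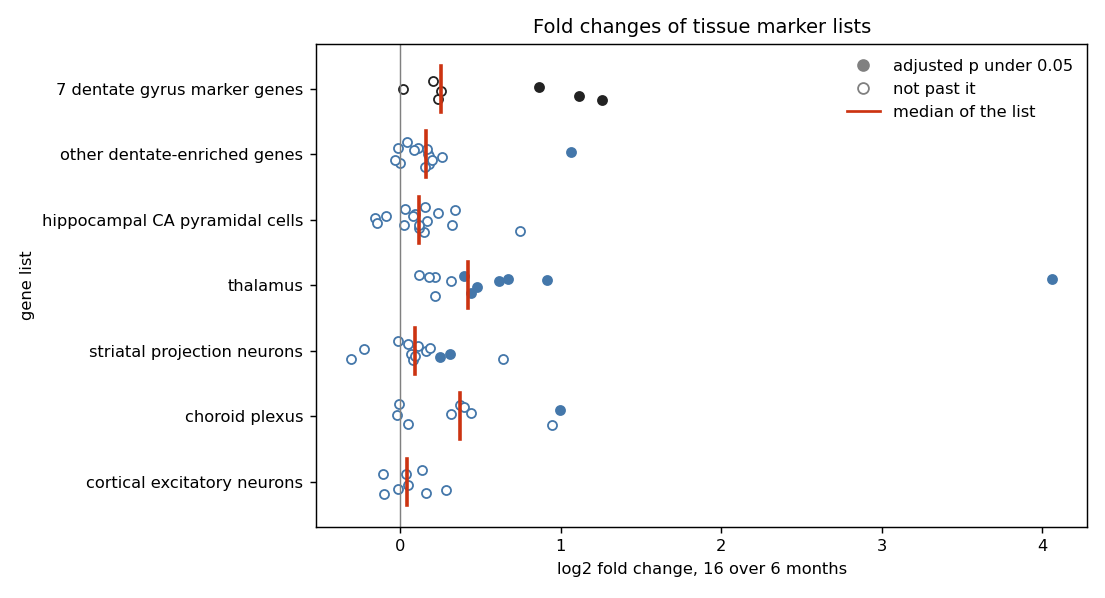
Log2 fold change of 16 over 6 months (horizontal axis) for the tested genes of the tissue and cell type lists named on the vertical axis, spread vertically for legibility, with the median of each list as a red line. Filled points passed an adjusted p of 0.05 in edgeR's quasi-likelihood test. The medians were 0.25 for the 7 genes, 0.16 for other dentate-enriched genes, 0.12 for CA pyramidal cells and 0.42 for the thalamus.

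The genes whose pattern was most like that of the 7 were sought among 14600 other tested genes with a mean of at least 1 CPM, by Pearson's r between the log2 CPM of a gene and the mean standardized profile of the 7 over the 6 samples. The 7 genes themselves reached r between 0.456 (Trpc6) and 0.964 (Lct). Among the 10 most alike were the death-associated kinase gene Dapk2 (r = 0.997), the BH3-only gene Hrk (0.996), Ptdss1 (0.995), the myosin gene Myh10 (0.995), Vat1l (0.994), the troponin gene Tnnc1 (0.994), Mettl11b (0.993), Aff2 (0.993) and Specc1l (0.992). None of the 10 stood in any of the marker lists. This is a description of likeness over 6 points of 2 ages, and all points share the age difference. When the mean of each age was removed first, the 10 most alike were other genes, with 0 in common, and the r of the 7 genes themselves ranged from −0.442 (Trpc6) to 0.767 (Tdo2).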

How the data were processed

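Polyadenylated RNA of cortical hemispheres was sequenced in 3 samples at 6 months and 3 at 16 months. The authors aligned trimmed reads to mm10 with STAR and counted them with HTSeq on the Ensembl annotation. The submitters' processing notes instead list STAR 2.3.0e and featureCounts 1.5.0-p1, but the files end with HTSeq's summary lines. The release and the strand setting are not given in the sources used here. The deposited values are raw counts per gene, without normalization. The summary of unassigned reads was left out of totals and tests. It lists 22.0% to 27.7% of uniquely aligned reads as lying on no gene.

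Gene identifiers were matched to GENCODE M21 on GRCm38 (36602 of 38355), which gave symbols, positions, exon length and GC content. GC content was known for 98.7% of tested genes. Counts were fitted with edgeR 4.0.16 in R 4.3.3 (TMM, filterByExpr, quasi-likelihood test, Benjamini-Hochberg adjustment over 17120 genes), without covariates. CPM values use TMM-scaled totals, and log2 CPM in the likeness measure a prior count of 2. Log2 fold changes are 16 over 6 months. Alternatives were size factors of DESeq2 in edgeR, the Wald test of DESeq2 1.42.0, other filters, the replicate number as a block, offsets for GC content (medians over 20 bins of genes) and each sample left out in turn. The fit was tested on simulated data. Near-identical copies were searched with blastn 2.17.0 at 97% identity over 100 bases. No copy covered a part of Lct, C1ql2 or Tdo2, and 0 bases of the longest Trpc6 transcript. Figures were drawn with matplotlib 3.10.9.

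The genes, the marker lists and the tests were chosen with earlier results of these data known. Named are the 7 genes, the 14 other dentate-enriched genes, the called and the 3 most abundant genes of each other list, and the 10 genes most like the 7, except for a few that are not reported here. Further genes of a list are named beside its result, chosen after their values were seen. Replicates of one age differed by more than sampling noise. The labels do not say that samples come from separate mice, whereas the study counts 3 brains per age. Floors cover counting error only.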

Additional observations from a re-analysis of the deposited data

How the results depend on the processing

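The number of all genes called moved by over 1.5 times in every setting except the size factors of DESeq2 and a minimum of 10 counts in every sample. The main fit called 286 genes in all, 3 of the 7 genes and 1 of the 14 other dentate-enriched genes. The Wald test of DESeq2 called 468 genes in all, 4 of the 7 and 2 of the 14. Without a filter on low counts these were 648, 4 and 2. In both settings C1ql3 was the gene added among the 7. Offsets for GC content called 2595 genes, 5 of the 7 and 6 of the 14, and together with the replicate block 3468, 5 and 7. With 1 sample left out, the counts were 48 to 2211 genes in all, 2 to 5 of the 7 and 1 to 4 of the 14. The highest total came without replicate 2 of 16 months. The causes were not tested. Blocking on the replicate number, 783 genes and 2 of the 14 (Npnt added) were called, and the 7 genes gained C1ql3. Among the CA pyramidal cell markers 2 of 16 were then called higher. Same-numbered samples share only a number: their deviations correlated with r = 0.180, 0.0958 and 0.0351 across genes, and not every sample correlated best with its own number. Of 247 single log2 fold changes and list medians recomputed over 13 settings, 246 moved by no more than the spread between replicates. The exception was the median of the mossy cell list, 0.039 without a filter on low counts. The log2 fold changes of all 7 genes stayed positive in all 13 settings, that of Trpc6 between 0.0090 and 0.040. Depth limits Tdo2 most, with 63 to 84 reads per sample.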
